A study of Homo sapiens with 10 samples.

Results

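Very long gene bodies are described here as they appear in a genome-wide list of nucleosome positions from human induced pluripotent stem cells (hiPSCs). They are the bodies of autosomal protein-coding genes of at least 500 kb, taken from GENCODE release 44 on GRCh38 and trimmed by 5 kb at each end so that the surroundings of the start and end of the gene stay out. Of 19111 autosomal protein-coding genes, 309 met this limit, on 21 autosomes with 3 or more each, and chromosome 19 held 0. The rule used the annotation alone and no measured value. The cells were of the line PB010.5 with a fluorescent cell cycle reporter cassette at the EEF2 locus. They were digested at 37 °C with micrococcal nuclease (MNase), an enzyme that cuts linker DNA, in amounts of 10, 6, 3, 1 or 0.5 U. The study's methods give 5 min of digestion, while its results give 10 min for a titration seen on gels. Each amount of enzyme gave 1 library, sequenced once with long and once with short reads, so the 10 samples are 5 per read length. The data are 1 list pooled over libraries, with no value per amount of enzyme and no replicate. Differences between amounts were not analysed here, no test between conditions is possible, and no p-value is given.

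A nucleosome is DNA wrapped around a core of histone proteins, and neighbouring nucleosomes are joined by linker DNA. Remodelling enzymes can set nucleosomes into arrays with even spacing, and transcription, replication and the DNA sequence itself also affect where they lie. Genes of this size are almost wholly intron, tend to be rich in A and T, and include many genes for cell adhesion and signalling between neurons as well as several common fragile sites, where chromosomes tend to break when replication is slowed. Expression was not measured in these samples, so no body could be sorted by its transcription.

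Merged, the 309 bodies covered 252.5 Mb, which is 9.16% of the sequenced autosomal bases, and held 1168483 of the 12465711 autosomal positions, or 9.37%. Of the 309, 8 overlapped another member, RBMS3, FOXP1, MAPK10 and ARHGAP24 among them, and 5 carried no gene symbol. Each position is an interval of 140 bp, and its midpoint was used. The score of a position is the authors' signal, a height whose scaling and read depth are unknown, and it came in steps of 1.23. The longest genes were RBFOX1 on chromosome 16 (5239802 to 7713340), which encodes a splicing regulator, CNTNAP2 on chromosome 7 (146116002 to 148420998) and PTPRD on chromosome 9 (8314246 to 10613002), which encode a neurexin-like adhesion protein and a receptor tyrosine phosphatase. They were followed by DLG2 on chromosome 11 (83455012 to 85628335), for a scaffold protein of synapses, and by CSMD1, for a transmembrane protein. At the limit, the 3 shortest members were KCNAB1, SPOCK3 and ANO5 at 501.4, 501.4 and 500.9 kb, with 4.98, 3.88 and 4.31 midpoints per kb and median scores of 14.8, 11.1 and 12.3. The 3 longest genes outside it were DIAPH3, ITPR2 and CACNA2D1 at 498.3, 497.8 and 497.5 kb, with 4.47, 4.70 and 4.31 midpoints per kb and median scores of 12.3, 13.6 and 12.3, inside the range of the members.

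The sequences below are examples of positions at the ends of the score scale. They are the highest-scoring position in each of the 3 longest bodies and the lowest-scoring position in PTPRD. They are the forward strand of GRCh38 from 5′ to 3′, and G and C are in capitals. None of them overlapped an exon of any annotated gene.
RBFOX1, highest score: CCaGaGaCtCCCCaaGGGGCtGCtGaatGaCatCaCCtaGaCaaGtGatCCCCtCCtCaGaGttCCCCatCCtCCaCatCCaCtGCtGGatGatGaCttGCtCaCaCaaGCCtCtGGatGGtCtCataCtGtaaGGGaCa
CNTNAP2, highest score: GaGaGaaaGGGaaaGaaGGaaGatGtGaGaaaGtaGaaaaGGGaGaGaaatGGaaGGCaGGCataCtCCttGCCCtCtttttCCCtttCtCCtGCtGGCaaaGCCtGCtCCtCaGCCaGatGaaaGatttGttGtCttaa
PTPRD, highest score: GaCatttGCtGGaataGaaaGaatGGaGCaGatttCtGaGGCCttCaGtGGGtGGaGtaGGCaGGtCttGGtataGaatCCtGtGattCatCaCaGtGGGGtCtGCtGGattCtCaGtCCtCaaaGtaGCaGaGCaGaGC
PTPRD, lowest score: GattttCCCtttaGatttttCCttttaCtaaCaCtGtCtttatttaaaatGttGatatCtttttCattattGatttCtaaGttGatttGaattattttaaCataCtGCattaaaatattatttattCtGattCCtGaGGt

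In RBFOX1 the highest-scoring position lay at chr16:6125012-6125151, 885 kb from the gene start, with a score of 55.5 and 53.6% GC. In CNTNAP2 the highest lay at chr7:147453032-147453171 with a score of 53.1 and 45.7% GC. In PTPRD the highest lay at chr9:10392842-10392981 with a score of 53.1 and 48.6% GC, and the lowest, at chr9:10216072-10216211, had a score of 0 and 22.9% GC. The 3 highest positions were richer in G and C than the lowest of PTPRD. The lowest score in RBFOX1 and in CNTNAP2 was 2.47, shared by 4 and 10 positions. The 1 taken from each, not shown, had 36.4% GC in RBFOX1 and 43.6% in CNTNAP2, so low scores were not always poor in G and C. Each of these positions is an extreme of many (12763 in RBFOX1). The mean GC content of the positions in a member averaged 41.0% ± 3.45 (SD, n = 309 members).

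Over all positions in long bodies, the score rose with GC content. Positions of 30 to 32% GC had a mean score of 10.5, those of 40 to 42% GC 14.7, those of 50 to 52% GC 18.9 and those of 60 to 62% GC 21.9. At each of these compositions the positions in bodies of genes 20 to 100 kb long scored slightly higher, at 10.6, 15.1, 19.5 and 23.5. The ratio of long to short was thus 0.989, 0.972, 0.966 and 0.931. MNase cuts A and T more readily than G and C, and its part in the score was not tested.

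Density and score followed base composition from gene to gene. The members ranged from 33.7% to 56.6% GC with a median of 38.2%, from 3.53 to 5.60 midpoints per kb with a median of 4.66, and from 9.87 to 21.0 in median score with a median of 13.6. Across the 309 members the rank correlation (Spearman's rho) of GC content was 0.91 with density and 0.91 with mean score, as a description of bodies that share 1 pooled list. The highest density was that of RBFOX3, an RNA-binding protein of neuronal nuclei with 54.7% GC, at 5.60 midpoints per kb with a median score of 19.7. The lowest was that of NCAM2, a neural cell adhesion molecule with 34.0% GC, at 3.53 midpoints per kb with a median score of 9.87. The dependence held inside bodies as well. In windows of 10 kb, density and GC content were positively correlated within 308 of 309 members, with a median rho of 0.47. The SD of density among the windows of a body had a median of 0.51 midpoints per kb, which is larger than the SD of 0.43 among the bodies themselves.

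**Figure D1:**
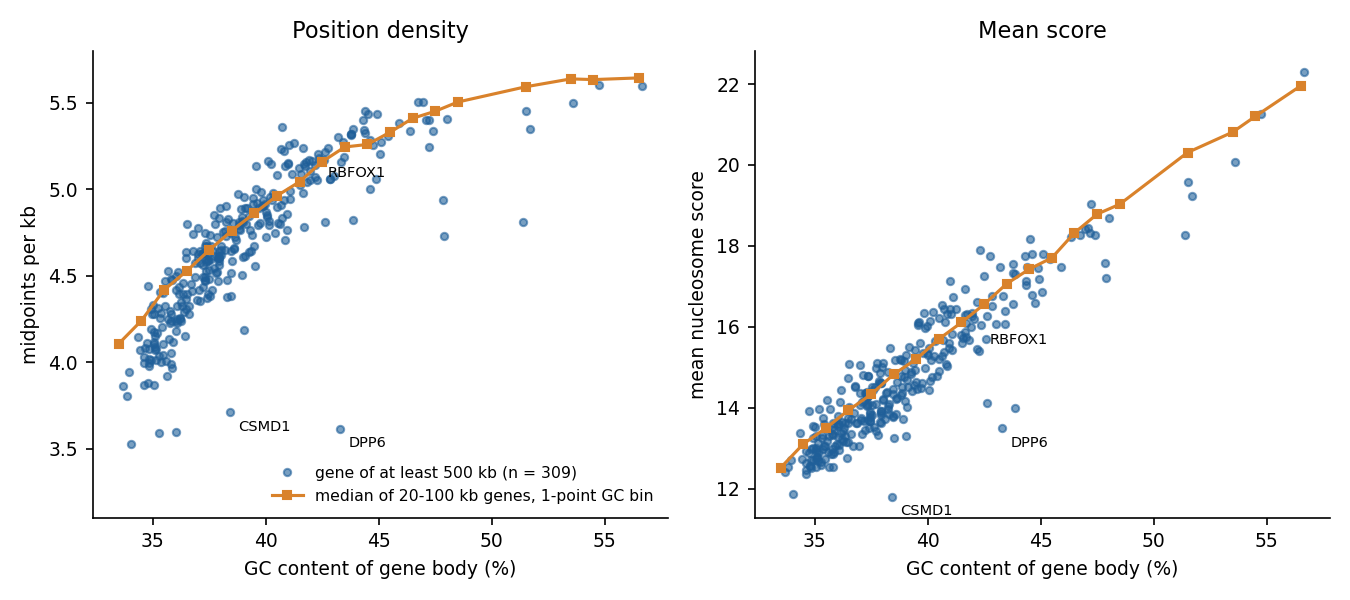
GC content of the gene body in percent (x axis) against midpoints per kb (left) and mean nucleosome score (right). Each blue point is a gene of at least 500 kb, and orange squares join the medians of 20 to 100 kb genes in GC bins of 1 percentage point. The members follow the orange line from 3.53 to 5.60 midpoints per kb, with CSMD1 and DPP6 well below it in score.

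For a comparison at equal base composition, each member was set against bodies of genes 20 to 100 kb long in the same 1-point GC bin. There were 7672 such bodies that did not overlap a member, trimmed in the same way, and every bin used held at least 40 of them. Error is the SD over the 21 autosomes. For this, the members of each autosome were set against matched short bodies of all autosomes. It therefore leaves out how short bodies vary between autosomes. Long bodies held 4.67 midpoints per kb and matched short bodies 4.62, a log2 ratio of 0.017 against an SD of 0.025 over autosomes, so density did not differ beyond that spread. The sign depends on how short bodies are averaged. The mean over a bin includes nearly empty short bodies, of which 78 held fewer than 3 positions, whereas against the median of the bin (4.77 midpoints per kb) the log2 ratio was -0.031 and 211 of 309 members (68.3%) lay below. By construction the share of short bodies below their own bin's median was 49.9%. Density was skewed among short bodies and a long body averages over more DNA, so the 49.9% is no baseline for the 68.3%. Most members stayed close to their bin, 298 of 309 within 10% of the median density.

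Neighbouring midpoints in a long body had a median distance of typically 180 bp, with body medians between 170 and 210 bp. The lower quartile averaged 136 bp, less than the 140-bp width of a position, so many neighbouring positions overlapped. These distances are thus not all spacings between separate nucleosomes. The mean of body medians was 183 bp, against 201 bp in matched short bodies, a difference of -17.7 bp (SD over autosomes 7.53, n = 21). That difference also rests on the sparse short bodies, since 76 of these and 0 members had a median over 300 bp, and with bin medians it became 2.0 bp. How frequent wide gaps were, relative to short bodies, likewise depended on the average. Distances over 500 bp made up 3.61% of neighbour distances on average, against 4.07% for the mean and 2.85% for the median of matched short bodies. Of the members, 238 of 309 (77.0%) exceeded the median of their bin, where the share among short bodies was 49.1% by construction. Short bodies were skewed in this value, and a long body averages over more DNA. The 49.1% is therefore no baseline for the 77.0%, and the count alone shows no difference.

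Scores in long bodies were marginally lower at equal GC. The mean of body median scores was 13.6 against 13.8 in matched short bodies, a log2 ratio of -0.021 (SD over autosomes 0.032, n = 21), and 17 of 21 autosomes lay below 0. In median score, 61 members lay below the median of their bin, 47 above it and 201 were equal to it. The mean score of 212 of 309 members (68.6%) fell short of the bin median. The share among short bodies was 49.9% by construction, with the same limit as for density. Without matching, the log2 ratio was -0.24, with short bodies at a median of 43.3% GC. The difference was thus smaller than its spread over autosomes. Under 4 alternatives it slightly exceeded that same SD of the main comparison. It was -0.033 with bodies trimmed by 20 kb, -0.036 for members of at least 750 kb and -0.039 in windows of 10 kb. With single positions matched on their own GC content it was -0.042. The difference was smaller, at -0.0085, with medians over short bodies, and -0.018 for positions at or above the autosomal median score. No SD is given for the alternatives themselves, so these values are not shown to exceed their own spread. Most of the unmatched difference in score between long and short genes went with base composition.

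The clearest difference lay in the order of positions along the DNA. Distances between all pairs of midpoints inside a body, up to 2000 bp, were counted in bins of 10 bp and set to 1 over 1000 to 2000 bp. The curve was highest at 110 bp, at 1.40 in long and 1.44 in matched short bodies, where positions overlap. The maximum at 180 bp, with heights of 1.17 and 1.11, is counted as the first here. In long bodies this curve had its second maximum at 380 bp with a height of 1.14 and later maxima at 570, 760 and 960 bp, which fits a repeat length of 193.5 bp (195 ± 5.04 over 21 autosomes, mean ± SD). The curve fell to 0.897 at 270 bp between the first and the second maximum. Matched short bodies had the second maximum at the same 380 bp, but with a height of 1.10, and the minimum at 270 bp with a height of 0.924. Their repeat length was 197 bp, a difference within the SD over autosomes.

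The rise from this minimum to the second maximum was 0.241 in long and 0.173 in matched short bodies, a difference of 0.0686 (SD over autosomes 0.0283, n = 21), and it was above 0 on 21 of 21 autosomes. A highest-less-lowest value grows with noise where positions are few, as on a single autosome. A measure over fixed distances, the mean of the curve at 360 to 400 bp less that at 260 to 300 bp, avoids this and is called distance contrast from here on. It was 0.217 in long and 0.154 in matched short bodies, and the long bodies were higher on 20 of 21 autosomes, by 0.0562 ± 0.0255 (SD). Chromosome 22, with 3 members, was the exception, at 0.130 against 0.158 in short bodies of all autosomes at the same GC. On the same scale as the rise, neighbour distances alone, if consecutive distances were unrelated, would give 0.119 in long and 0.0809 in short bodies. With these levels subtracted, the difference in rise was 0.0301, close to the SD of 0.0283 of the main difference. The level of long bodies was taken over all members together and that of short bodies per GC bin, so they were not built alike. How the difference divides between neighbour distances and their succession is thus not settled. The difference in rise was 0.0472 when bodies were matched on density as well as GC.

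**Figure D2:**
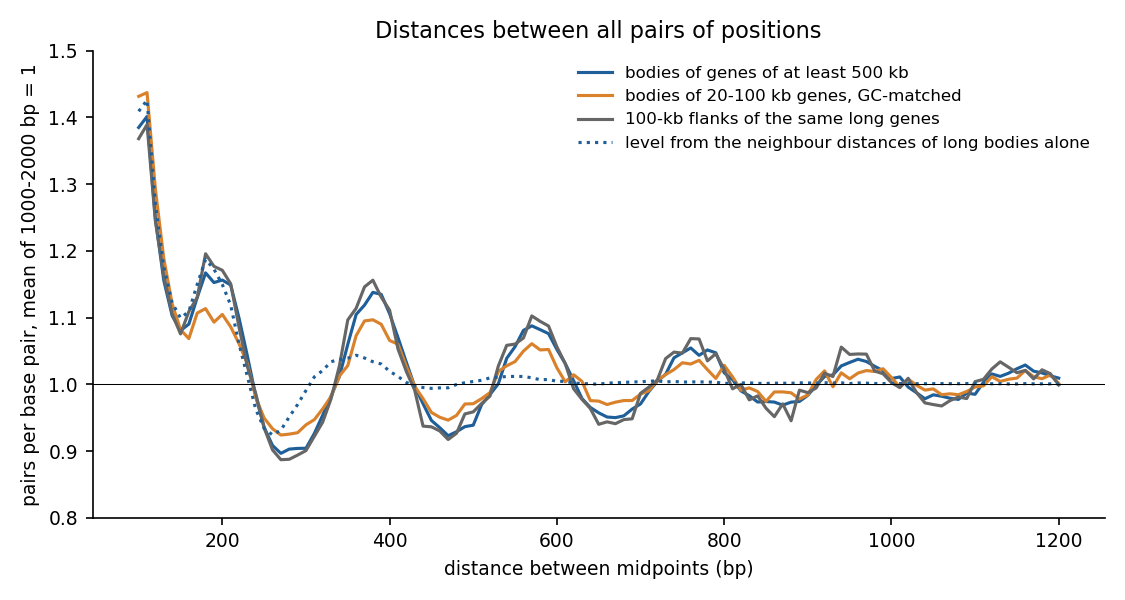
Distance between midpoints in bp (x axis) against pairs per base pair, with the mean over 1000 to 2000 bp set to 1 (y axis, drawn from 0.8). The blue line (long bodies) and the grey line (100-kb flanks of the same genes) reach 1.14 and 1.16 at 380 bp, above the orange line of GC-matched short bodies at 1.10, and the dotted line is the level that the neighbour distances of long bodies alone would give.

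The contrast was higher in long bodies over the GC range that holds most members, but the excess tended to be smaller at higher GC. In the 11 GC bins with at least 10 members, which run from 34% to 45% GC and hold 286 members, the long bodies were higher in 11 of 11, at 0.191 to 0.248 against 0.138 to 0.166 in short bodies. It was 0.241 against 0.143 at 35 to 36% GC and 0.191 against 0.161 at 43 to 44% GC. Above 45% GC only 20 members remained, in 8 bins, and the long bodies were higher in 5 of these. Differences were small at 45 to 46% GC (0.154 in both, 4 members) and at 47 to 48% GC (0.161 against 0.166, 6 members), so the excess is shown mainly below 45% GC. Of single members, 263 of 309 (85.1%) exceeded the pooled level of short bodies in their bin, where the share of single short bodies doing so was 49.1%. The members averaged 0.217 ± 0.0564 (SD), from 0.0564 to 0.347.

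Distance contrast was higher in each longer class of genes. With each class at its own GC content it was 0.152 in genes of 20 to 50 kb, 0.161 at 50 to 100 kb, 0.170 at 100 to 200 kb, 0.188 at 200 to 300 kb, 0.196 at 300 to 500 kb, 0.210 at 500 to 1000 kb and 0.230 in the 67 genes of at least 1000 kb. The median GC content of the classes fell from 44.3% to 37.1% along this series, while short genes at the GC content of each class stayed between 0.154 and 0.159. With the classes weighted to the GC bins of the long bodies, the values were 0.147, 0.157, 0.180, 0.192, 0.206, 0.218 and 0.243, the last over bins that hold only 93 of the 309 members. The SD over autosomes in a class ran from 0.0148 to 0.0280. The steps between neighbouring classes of the unweighted series were within the SDs of both classes, except from 100 to 200 kb to 200 to 300 kb, and the ends of the series differed by more than either SD. Among the 309 members alone the rank correlation of contrast was only 0.12 with length, against -0.32 with GC content and -0.34 with density. Ratios to the bin median changed little along the same series, between 0.981 and 1.00 for density and between 0.969 and 1.01 for mean score.

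The long bodies were not more regular than the DNA around them. Flanks of each member, 100 kb wide from 5 kb outside the gene and with all protein-coding genes removed, had a distance contrast of 0.237 (SD over autosomes 0.0317), and the bodies were below their flanks on 18 of 21 autosomes, with flanks higher by 0.0328 ± 0.0313 (SD). The flanks of short genes, cut in the same way and taken at the GC content of the long bodies, had 0.244. The long bodies at 0.217 thus lay between short bodies at 0.154 and these flanks, from which genes of other types were not removed. Density and score in the bodies were close to those of their flanks. Over the 306 members with at least 20 kb of flank, the log2 ratio was -0.016 ± 0.099 (SD over members) for density, with 172 bodies below their flanks and 134 above, and -0.041 ± 0.13 for median score, with 106 below, 47 above and the others equal. The autosomal means had SDs of 0.028 and 0.043, so neither differed beyond the spread. Flanks averaged 39.7% GC and bodies 38.8%, both over all bases, and this was not adjusted for.

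**Figure D3:**
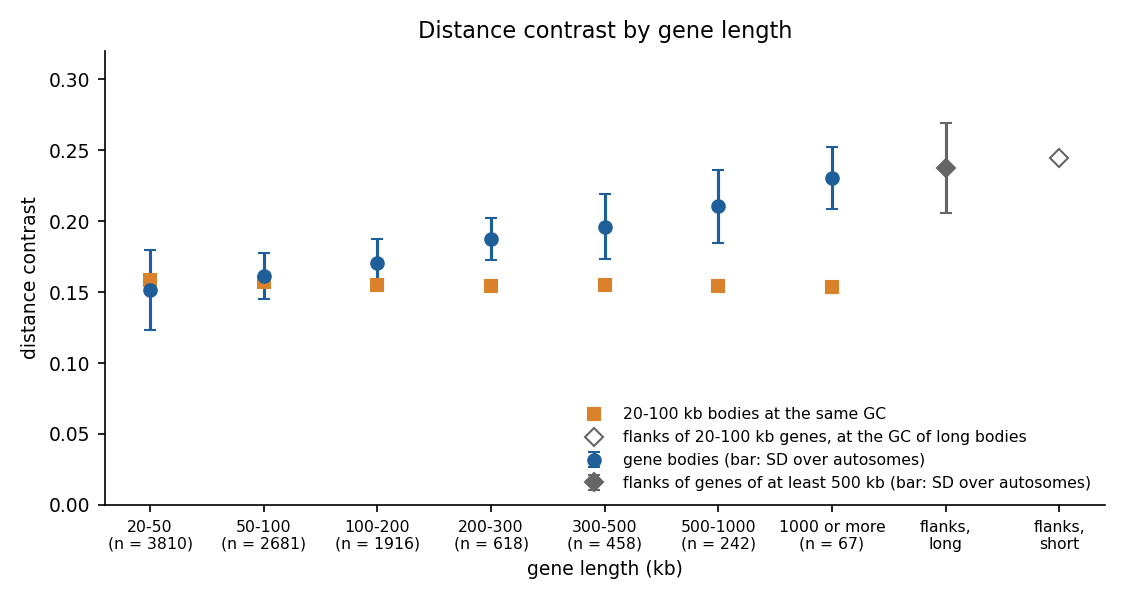
Gene length class in kb with the number of genes (x axis) against distance contrast (y axis, from 0). Blue points with bars are gene bodies and their SD over autosomes, orange squares the level of 20 to 100 kb bodies at the same GC, and diamonds the flanks of long genes (filled) and of short genes (open). Bodies rise from 0.152 to 0.230 while the orange squares stay between 0.154 and 0.159, and both flank values lie above 0.23.

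Along the body, density and score changed little. The body was divided into 10 equal parts from the start to the end of the gene, and windows of 10 kb in each were set against windows of short bodies at the same GC. The density ratio was 1.00 in the first and 1.02 in the last, and the score ratio ran from 0.968 to 0.981, below 1 in all 10. Windows with fewer than 2 midpoints per kb made up 2.46% of short-body and 0.40% of long-body windows. No density ratio without such windows is given, so its side of 1 is not settled. Distance contrast was 0.226 in the first, 0.195 in the second, 0.244 in the third and 0.202 in the last, with SDs over autosomes from 0.0327 to 0.0623. The lowest and the highest, the second and the third, differed by less than either of their SDs, 0.0553 and 0.0606.

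**Figure D4:**
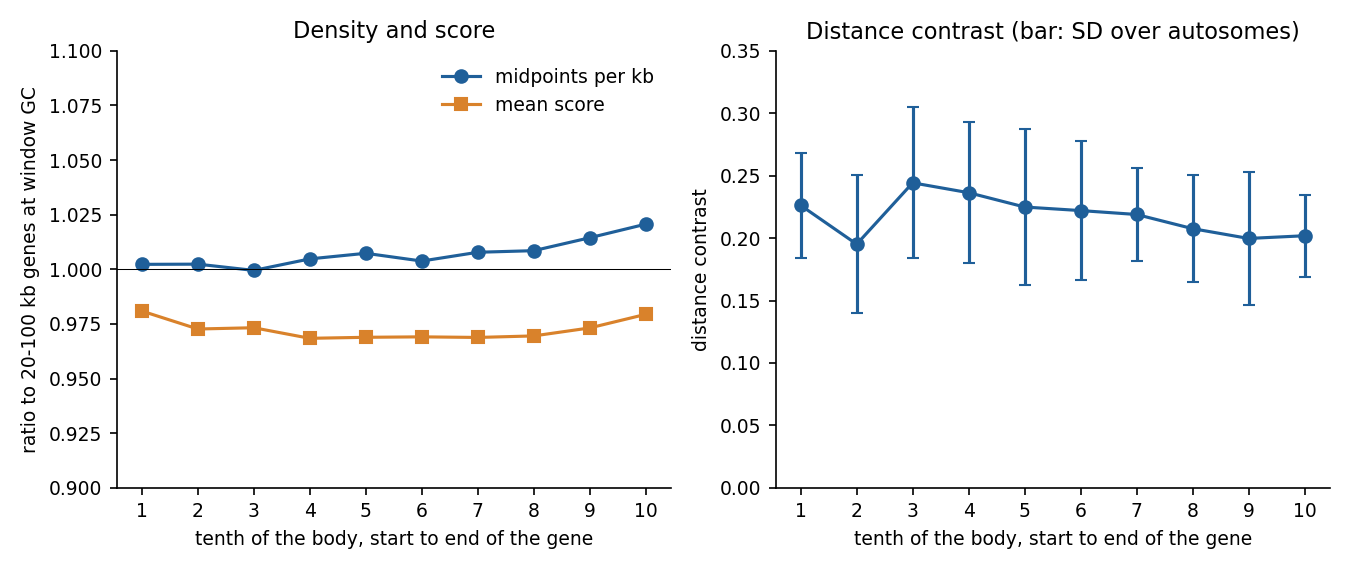
The 10 equal parts of the body from gene start to gene end (x axis) against the ratio of density and mean score to windows of short bodies at the same GC (left, drawn from 0.9) and distance contrast (right, bars: SD over 21 autosomes). Density stays between 0.999 and 1.02, score between 0.968 and 0.981, and the bars of contrast overlap throughout.

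Coding exons are a small part of these bodies. The 6969 coding segments spanned 1075 kb and held 6187 midpoints, or 5.76 per kb, whereas 249729 kb of intron held 4.62 per kb. The positions in coding segments had a mean score of 17.1 and those in introns 14.7, at 47.8% and 40.9% GC. Intron positions weighted to the GC content of the coding positions had a mean score of 17.2, a ratio of 0.992, so the score of coding positions did not stand out at their composition. The density of coding segments was not matched on GC.

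Single genes departed from their GC peers more in density and score than the group did. DPP6, which encodes a subunit that modulates potassium channels, had 3.62 midpoints per kb where the median of its GC bin was 5.24, and a median score of 12.3 against a bin mean of 15.9. The shortfall was uneven, as 26 of its 113 windows of 10 kb held fewer than 2 midpoints per kb and the other windows together held 4.36. GRM5, a metabotropic glutamate receptor, had 3.60 midpoints per kb against 4.53, with 6 of 55 such windows. CDH12, a cadherin chosen here after its values were seen, had 3.59 against 4.42, with 16 of 109. These 3 genes held 48 of the 102 such windows found in long bodies. Such windows were rarer in long bodies, at 0.40% of 25287 windows, than in short bodies, at 2.46% of 25142. CSMD1 (chromosome 8, 2935353 to 4994972) had 3.71 midpoints per kb against 4.76 and no such window, and its median score of 9.87 compared with a bin mean of 13.5. Its low density thus did not rest on windows of that kind, and its flanks were low too, at 4.15 midpoints per kb and a median score of 11.1.

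At the other end, PTPRG, a receptor tyrosine phosphatase, had 5.36 midpoints per kb against a bin median of 4.96. CADPS2, which takes part in the release of dense-core vesicles, had 4.80 against 4.53, and FAT3, an atypical cadherin, had 5.13 against 4.86. The highest median scores for their composition were those of RAD51B, a factor of DNA repair by homologous recombination, at 16.0 against 14.5, and of KALRN and DENND1A, both exchange factors for small GTPases, at 17.3 each against 15.4. The excess of these genes was smaller than the shortfall of DPP6 and CSMD1. Without replicates no error can be put on the value of a single gene.

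The widest distance between neighbours in a member had a median of 2480 bp and reached 10 kb in 7 members. The widest, 100160 bp in SHANK2, a scaffold protein of synapses, spans 100000 bp of unsequenced reference. In the other 308 members the widest gap held no unsequenced bases, and the largest of these gaps were 36190 bp in TRPM3, a cation channel, and 26290 bp in PTPRN2, a phosphatase-like protein of secretory granules. These 3 genes were named after their values were seen.

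Genes were also grouped by function. The counts below can be read against the shares over all 309 members, which were 85.1% above the level of their bin in contrast, 68.3% below its median in density and 68.6% below in mean score, and the lists were not tested against these shares or each other. The largest list, cell adhesion and axon guidance, had 37 of its 47 listed genes among the members, and 36 of the 37 had a distance contrast above the level of their GC bin, with a median of 0.235 against 0.220 over all 309 members. CNTNAP2, its longest, had 0.214, with 4.38 midpoints per kb and a median score of 12.3. The highest and lowest median scores of the list belonged to CDH4, a cadherin at 51.7% GC, at 18.5 with a contrast of 0.161, and to NCAM2 at 34.0% GC, at 9.87 with 0.147. Density in the list lay below the bin median in 26 of 37 and mean score in 27 of 37, with median ratios of 0.977 and 0.970.

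Neurotransmitter receptors and ion channels had 18 members, of which 17 were above the level of their bin in contrast, with a median of 0.216. Their density was below the bin median in 15 of 18 and their mean score in 10 of 18. CACNA1C, the pore of an L-type calcium channel of heart and neurons, had the highest median score of the list at 18.5 and a contrast of 0.233, and GRM5 had 12.3 and 0.250. Kinases and cyclic nucleotide phosphodiesterases had 10 members with 9 above their bin and a median of 0.208. Among them PDE4D, which degrades cyclic AMP, had 0.246, PRKCE, a protein kinase C, 0.187, and ERBB4, a neuregulin receptor, 0.286, with median scores of 12.3, 16.0 and 12.3.

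Transcription and RNA-binding regulators had 17 members with 16 above their bin and the highest median contrast of the lists, 0.241. RBFOX1 had 0.187 with 5.18 midpoints per kb and a median score of 14.8, RBFOX3 had 0.287, and FOXP2, a forkhead transcription factor, had 0.251 with 4.11 midpoints per kb and a median score of 12.3. Large genes at common fragile sites had 17 members, 7 of which stand in another list as well, with 14 above their bin and a median of 0.204, with DLG2 at 0.300, CSMD1 at 0.204 and RORA, a nuclear receptor, at 0.241. Only 3 of 6 receptor tyrosine phosphatases were above their bin, with a median of 0.172, from 0.143 in PTPRN2 to 0.232 in PTPRD.

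A further list of 32 members with roles inside the cell, in membrane trafficking, DNA repair and metabolism, was added after first values of these data had been seen. Of these, 21 were above the level of their bin, with a median contrast of 0.176, and their density and mean score were near the bin median, with median ratios of 0.993 and 1.00. TBC1D5 and SNX29, both of endosomal sorting, had 0.204 and 0.121, and DPYD, the enzyme that starts the breakdown of pyrimidines, had 0.287. Their values overlap those of the adhesion list widely, from 0.0791 to 0.287 against 0.147 to 0.345.

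**Figure D5:**
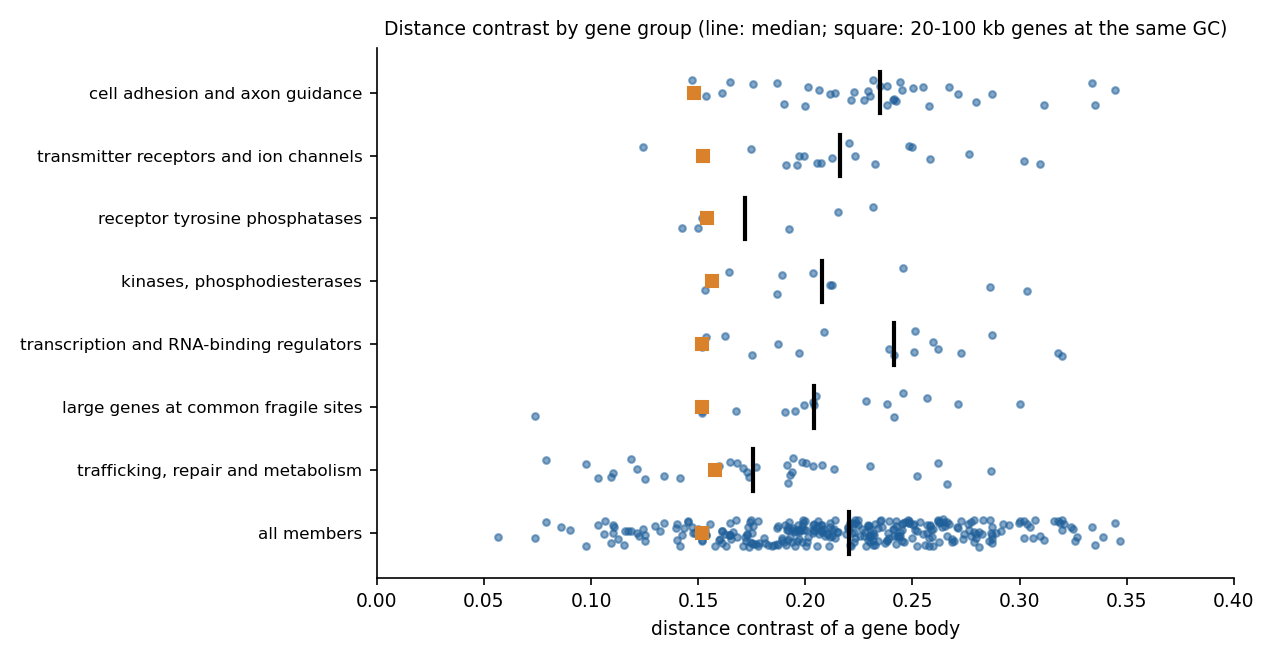
Distance contrast of a gene body (x axis, from 0) for the members of each functional group (y axis). Each blue point is a gene, black lines are group medians, and orange squares are the median levels of 20 to 100 kb genes in the same GC bins. Medians run from 0.172 in receptor tyrosine phosphatases to 0.241 in transcription and RNA-binding regulators, and the square lies to the left of the median in every group.

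The contrast of a single body carries a large uncertainty. Each body was cut at its middle, and the 2 values of a member differed by 0.0721 on average, with a rank correlation of 0.21 over the 309 members. In 201 members both values were above the level of the bin and in 20 both were below. FOXP2 shows how far they can part, with 0.421 in the part with the lower coordinates and 0.0798 in the other. The 5 highest and 5 lowest members were named after their values were seen. RGS7, a regulator of G protein signalling, had 0.347 with 0.361 and 0.336 in its 2 parts, CDH12 had 0.345 with 0.411 and 0.298, MALRD1 0.339, NEGR1, an adhesion molecule, 0.335, and PCDH15, a protocadherin of hair cells, 0.334. SYN3, a synapsin, had 0.0564 with 0.0767 and 0.0337, NBEA 0.0739 and LRBA 0.0791, which are related proteins of vesicle trafficking, DLGAP2 0.0859 and CALN1 0.0901. SYN3 is 1 of the 3 members on chromosome 22, where the long bodies as a group were not above the level of short bodies of all autosomes.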

How the data were processed

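MNase-seq was carried out on 10 samples of hiPSCs, 5 amounts of MNase at 2 read lengths. Per the study's methods, the authors trimmed reads with Trimmomatic (0.40 in the submitters' processing notes), aligned them to GRCh38, removed blacklisted regions, ran the nucMACC workflow and did not pursue the short-read runs downstream. The deposited list gives a signal per position, whose scaling, and the runs pooled for it, are not given in the sources used here. Density is midpoints per kb of sequenced bases. GC bins were 1 percentage point wide and needed 10 comparison bodies. In each, comparison bodies were averaged and weighted by the number of members. Named genes were the 5 longest, the 3 highest and 3 lowest in density and in median score for their GC bin, those next to the length limit, and the longest, highest- and lowest-scoring of each list, with equal median scores ordered by mean score. Others are said to be chosen later, and some items are not reported here. GENCODE 44 was used where the study used a later release. The members and lists were chosen with earlier results of these data known. Spread is the SD over autosomes with at least 3 members. Where short bodies are the comparison, those of all autosomes were used for each autosome. Scripts ran under Python 3.11.15 with NumPy 2.4.6, pandas 2.3.3 and SciPy 1.17.1 and were tested on simulated positions.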

Additional observations from a re-analysis of the deposited data

How the results depend on the processing

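Of 43 alternative values for the 6 comparisons (density, neighbour distance, score, pair distance contrast, and density and score against flanks), 33 moved by less than the SD over autosomes. The values of pair distance contrast below are differences in the rise from the minimum to the second maximum. They are not on the scale of the measure over fixed distances. Without GC matching, the log2 ratio became -0.095 for density and -0.24 for score, and the difference in neighbour distance -8.63 bp. When only positions scoring at least the autosomal median were kept, density became -0.022, neighbour distance -30.9 bp and the pair distance contrast 0.108. Fewer positions remain in that case and a highest-less-lowest value grows with noise, so the 0.108 is not shown to be a stronger difference. With the level from neighbour distances subtracted, the contrast fell to 0.0301. Of 8 alternatives chosen after seeing the data, medians in place of means over short bodies gave -0.031 for density and reversed neighbour distance to 2.0 bp, and the members' own flanks in place of short bodies reversed the contrast to -0.0278. The causes were not tested. All alternatives for density and score against flanks moved by less than the SD. The alternatives that needed marked repeats were not run, since the reference used here does not mark them. The list gives no read depth, so no sampling error can be stated, and midpoints lie mostly on a grid of 10 bp, which limits all distances.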
